A study of Mus musculus with 4 samples.

Results

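The genes described here are 10 members of the bone morphogenetic protein (BMP) and transforming growth factor-β (TGF-β) pathways: the ligand genes Bmp2, Bmp4, Bmp7, Tgfb2 and Inhba, the BMP target genes Id1, Id2 and Id3, and the inhibitory SMAD genes Smad6 and Smad7. They were taken by symbol from the 31053 genes of 4 single-cell matrices of unique molecular identifier (UMI) counts, not by a cutoff on a measured value. The choice was made with earlier results of these data known. All 10 were found in every matrix, and all 10 passed the filter on low counts in the adult prostate. A further 52 ligands, receptors, signal transducers, inhibitors and targets of the same pathways were counted as a list.

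BMP and TGF-β ligands are secreted dimers that bring type I and type II serine/threonine kinase receptors together, and the receptors phosphorylate SMAD proteins that enter the nucleus with SMAD4. BMP signalling classically turns on the Id genes, which encode helix-loop-helix proteins without a DNA-binding domain, as well as Smad6 and Smad7, whose products feed back on the receptors. In the developing prostate, BMP4 and BMP7 are known as restraints on budding and ductal branching, whereas the INHBA subunit forms activin A and TGF-β2 is a ligand of the TGF-β receptors.

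Every library came from mice of the ICR (CD-1) strain. Adult cells were from P2-Runx1:RFP mice, in which red fluorescent protein (RFP) reports the P2 promoter of Runx1, and were over 8 weeks of age. Intact prostates were divided into ventral (VP), dorsolateral (DLP) and anterior lobes (AP), each sorted for EPCAM and split into RFP+ and RFP- fractions, and castrated mice had been castrated for over 4 weeks. Mice were pooled before sorting, so each fraction of a run is 1 pool. Runs 1 and 2 held intact and castrated cells, run 3 held intact cells only, and castrated lobes were kept apart only in run 2 (961 castrated cells) and pooled in run 1 (18 cells). Intact DLP RFP+ cells could be assigned in run 3 only. The explant library held urogenital sinuses of E15.5 embryos, collected at day 0 or after 1, 3 or 6 days of culture in medium with 10 µM dihydrotestosterone, with 1 barcode per day and no RFP reporter named in its labels.

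After filtering and barcode assignment 4691 adult and 5198 explant cells remained, with a median of 9750 to 14784.5 UMIs per cell and library, and at most 6 cell barcodes were shared between any 2 libraries. Clusters were named from markers, and 2078 adult cells were basal-like and 2007 luminal-like. The 6 basal markers (Krt5, Krt14, Trp63, Krt15, Krt17 and Col17a1) summed to between 9195 and 13460 CPM (counts scaled to a common library total) in the 15 intact basal-like sums and to between 8.932 and 2818 CPM in the 16 intact luminal-like sums. Both tissues had been sorted for EPCAM, and the sort still left 118 adult fibroblast-like cells and 141 mesenchyme-like explant cells. UMIs were summed per run, lobe, RFP fraction and compartment, and these sums, not cells, are the replicates. Adult levels are given as CPM scaled by the trimmed mean of M-values (TMM), a value per gene and sum that is not to be compared between genes. Each sum comes from 1 pool of mice, so p-values measure the spread between 3 runs that may be partly technical.

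On GRCm38 the ligand genes lie at chr2:133552159-133562885 (Bmp2, plus strand), chr14:46383520-46390669 (Bmp4, minus strand), chr2:172868012-172940321 (Bmp7, minus strand), chr1:186622792-186705989 (Tgfb2, minus strand) and chr13:16011851-16031621 (Inhba, plus strand). The target genes lie at chr2:152736251-152737410 (Id1, plus strand), chr12:25093799-25097140 (Id2, minus strand) and chr4:136143497-136145755 (Id3, plus strand), and the inhibitory SMAD gene Smad6 lies at chr9:63953076-64022059 (minus strand).

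Promoter sequence was at hand for 6 of the 10 members (Bmp4, Id2, Id3, Smad6, Tgfb2 and Inhba), as the 250 bases before the RefSeq start on GRCm38.p6. The gene coordinates above follow another annotation, and for Id2 and Id3 the RefSeq start lies inside them. The windows of these 2 genes thus fall within the gene as placed above. Those of Id2 and Id3 (BMP targets), Smad6 (a feedback inhibitor) and Tgfb2 (a ligand) are shown because the differences between populations described below turn on these genes. Both strands were searched for the SMAD-binding core CAGAC, which reads as its reverse complement when it lies on the other strand, and for a palindrome rich in G and C that SMADs can also bind, GGCGCC. The motifs do not overlap each other in these windows, and matches stand in capitals below.
Id2, chr12:25096093-25096342, minus strand: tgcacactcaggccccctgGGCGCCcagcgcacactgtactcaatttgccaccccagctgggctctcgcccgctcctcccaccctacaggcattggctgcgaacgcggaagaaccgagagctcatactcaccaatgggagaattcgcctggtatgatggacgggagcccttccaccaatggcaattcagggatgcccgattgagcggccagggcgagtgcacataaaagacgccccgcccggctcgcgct
Id3, chr4:136143572-136143821, plus strand: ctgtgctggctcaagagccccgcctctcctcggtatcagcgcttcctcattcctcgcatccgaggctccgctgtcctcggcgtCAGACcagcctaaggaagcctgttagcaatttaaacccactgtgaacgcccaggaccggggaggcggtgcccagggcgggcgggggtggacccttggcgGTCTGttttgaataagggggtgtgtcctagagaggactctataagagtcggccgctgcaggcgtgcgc
Smad6, chr9:64022060-64022309, minus strand: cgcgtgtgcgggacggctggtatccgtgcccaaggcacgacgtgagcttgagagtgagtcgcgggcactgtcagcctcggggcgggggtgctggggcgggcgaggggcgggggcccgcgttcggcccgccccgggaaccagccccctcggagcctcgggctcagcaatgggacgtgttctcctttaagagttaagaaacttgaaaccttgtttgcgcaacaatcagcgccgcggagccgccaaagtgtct
Tgfb2, chr1:186705990-186706239, minus strand: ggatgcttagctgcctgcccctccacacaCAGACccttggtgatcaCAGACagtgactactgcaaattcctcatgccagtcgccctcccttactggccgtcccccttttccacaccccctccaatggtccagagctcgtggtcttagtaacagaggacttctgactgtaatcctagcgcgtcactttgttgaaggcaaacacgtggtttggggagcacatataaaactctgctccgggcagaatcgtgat

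The Id2 window held GGCGCC 231 bases before the start. The Id3 window held CAGAC 167 bases and GTCTG 68 bases before the start, and the Tgfb2 window held CAGAC 221 and 204 bases before it. The Smad6, Bmp4 and Inhba windows held neither. Among 32817 windows of the same length, 42.2% held CAGAC or GTCTG and 9.59% held GGCGCC, so a match is a description of these letters only.

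Across the intact adult epithelium, Bmp2, Bmp4 and Bmp7 were basal-high ligands. Bmp4 ranged from 4.653 to 26.04 TMM-scaled CPM over the 15 basal-like sums and from 0 to 4.194 over the 16 luminal-like sums, with no overlap. Bmp2 ranged from 5.203 to 38.81 CPM in basal-like and from 0 to 9.962 CPM in luminal-like sums, and the overlap came from AP RFP+ luminal-like cells. Bmp7 ranged from 32.32 to 74.97 CPM in basal-like and from 5.389 to 37.57 CPM in luminal-like sums, with the AP RFP- sums and 1 DLP RFP- sum among the luminal-like reaching the basal range. Inhba, the activin A subunit, was at 0 in every RFP- luminal-like sum of DLP and VP, and it was highest in VP RFP+ basal-like cells, with 8.366 ± 2.19 CPM (SD, n = 3). Tgfb2 did not follow the compartment, since basal-like sums lay between 0 and 23.41 CPM and luminal-like sums between 0 and 25.17 CPM.

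Levels of the target and feedback genes differed between lobes and between compartments. Id1 was highest in AP RFP+ luminal-like cells, with 1173 ± 246 CPM (SD, n = 3), and lowest in VP RFP+ luminal-like cells, with 23.33 ± 7.27 CPM (SD, n = 3). Id2 ran from 234.7 ± 33.0 to 27.55 ± 6.38 CPM (SD, n = 3) between the same 2 populations. Id3 was highest in AP RFP+ basal-like cells, with 802.9 ± 293 CPM, and lowest again in VP RFP+ luminal-like cells, with 9.662 ± 2.23 CPM (SD, n = 3). Smad6, which restrains BMP receptors, was highest in DLP RFP- luminal-like cells, with 10.9 ± 3.39 CPM (SD, n = 3), and had no UMI in the 3 VP RFP- luminal-like sums. Seminal vesicle and mesonephric markers summed to 87010 and 36590 CPM in runs 1 and 2 of that DLP population, and their part in its Smad6 level was not tested. Smad7, which restrains both branches, stood at 151.7 CPM in the single sum of DLP RFP+ basal-like cells and at 20.03 ± 6.96 CPM (SD, n = 3) in VP RFP- luminal-like cells. Luminal-like cells of the AP and the VP lay mostly in different clusters. In run 2 the cluster of most VP luminal-like cells, led by Sbpl, also held intact AP cells. Their Id1 stood at 159.1 CPM (RFP+, 11 cells) and 3.678 CPM (RFP-, 19 cells), without TMM scaling. The part of cluster makeup in the lobe differences was not tested.

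Few steps in these orders were clear of the spread between runs. Of the 11 steps between neighbours among 12 populations, 3 were without overlap for Bmp7, Id3 and Smad6, 1 for Tgfb2 and 2 for each of the other 6 members. The step that set AP RFP+ luminal-like cells above all others in Id1 was among them, and so was the step that set VP RFP- basal-like cells (71.39 ± 5.06 CPM, SD, n = 2) on top for Bmp7. The steps from VP RFP- to VP RFP+ luminal-like cells at the foot of the order overlapped for Id1 and Id2. Over the 31 sums the levels of Id1 and Id3 moved most closely together (Pearson r = 0.944 of log2(CPM + 1)), followed by Id1 and Id2 (r = 0.895), Id2 and Smad6 (r = 0.885) and Id2 and Id3 (r = 0.876). Among the ligands Bmp2 and Bmp4 were closest (r = 0.858), whereas Bmp2 and Tgfb2 ran against each other (r = -0.346). These correlations describe sums that share runs and compartments and were not tested.

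**Figure D1:**
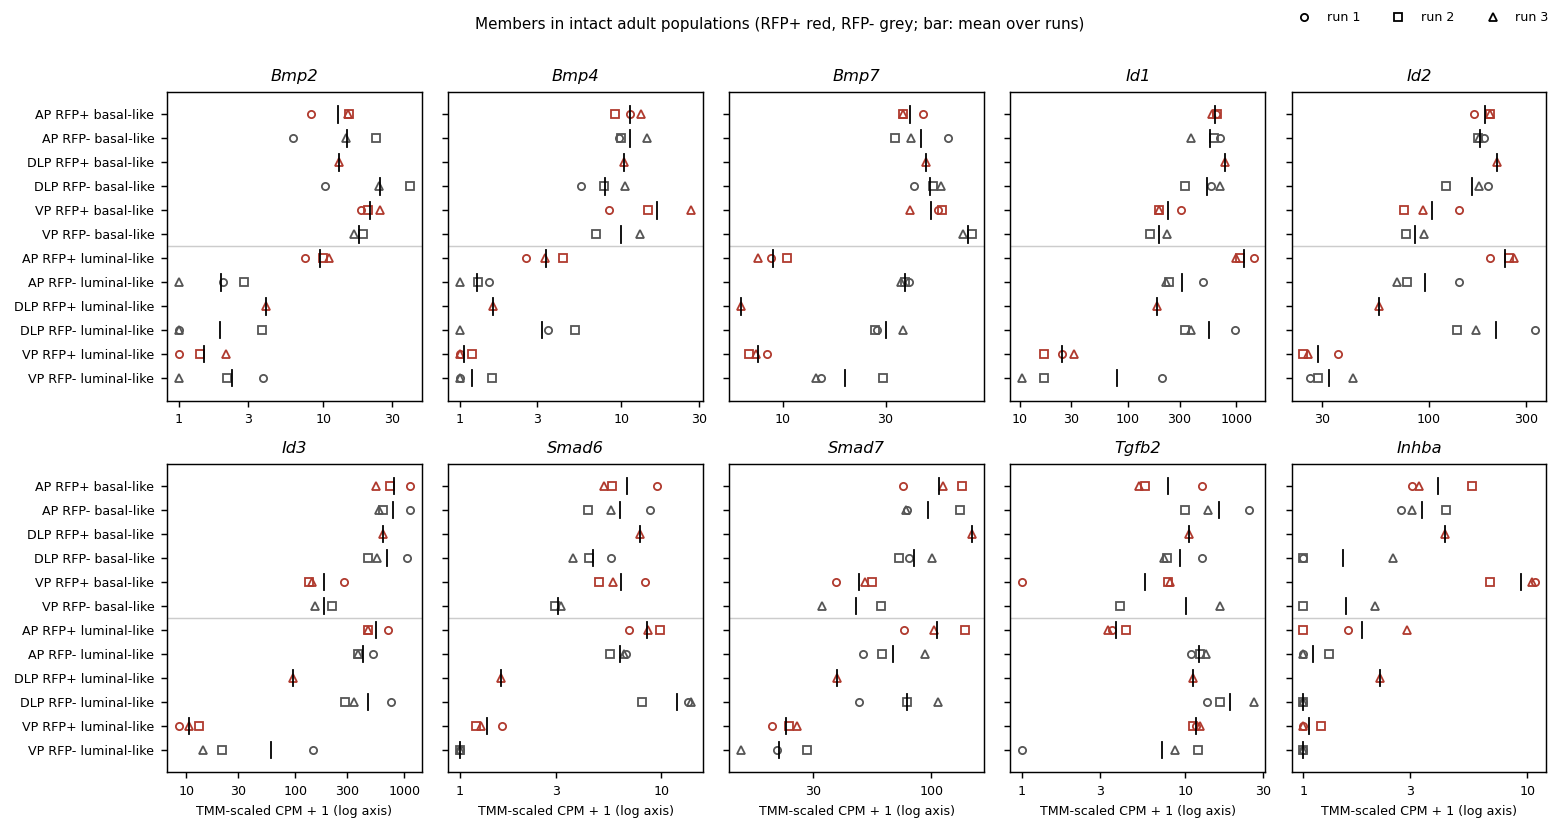
Level of each member (TMM-scaled CPM + 1, log axis) in the 12 intact adult populations, with 1 point per run (circle run 1, square run 2, triangle run 3; red RFP+, grey RFP-) and a bar at the mean over runs. Bmp2, Bmp4 and Bmp7 lie to the right in the basal-like rows, and Id1, Id2, Id3 and Smad7 lie to the left in both VP luminal-like rows, where run 1 of the RFP- row stands apart for Id1 (207.5 CPM) and Id3 (143 CPM).

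Other cell types held some of the members at higher levels. In fibroblast-like cells (48, 31 and 20 cells in runs 1 to 3) the unscaled level of Bmp2 was 82.7, 90.9 and 39.43 CPM, that of Bmp4 was 74.57, 104.4 and 52.58 CPM, and that of Tgfb2 was 32.54, 37.03 and 92.01 CPM. Inhba stood there at 16.27, 16.83 and 13.14 CPM. In the 53 endothelial-like cells of run 1, Id3 stood at 1753 CPM, and Id2 stood at 545.4 and 888.6 CPM in the hematopoietic-like cells of runs 1 and 2. Id1 stood at 1188 CPM in those endothelial-like cells, which was not above the highest luminal-like sum (1452 CPM, TMM-scaled). The 5 fibroblast markers (Col1a1, Col3a1, Vim, Pdgfra and Lum) summed to between 5.477 and 72.54 CPM in intact basal-like sums and to between 0 and 16.22 CPM in luminal-like sums, with up to 3 and up to 5 of the 5 at 0. Their part in the basal-high ligands was not tested.

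The first comparison asked how basal-like and luminal-like cells of the RFP+ AP differ. Bmp4 was higher in basal-like cells, which had 10.28, 8.157 and 12.27 CPM in runs 1 to 3 against 1.569, 3.334 and 2.372 CPM in luminal-like cells. Bmp7 was also higher, with 43.68, 34.96 and 35.28 CPM against 7.846, 9.447 and 6.641 CPM. Both members were without overlap between compartments. The log2 fold change was 2.17 ± 0.47 (SE) for Bmp4 (adjusted p = 0.000672) and 2.26 ± 0.25 for Bmp7 (adjusted p = 3.99e-08). Tgfb2, at 11.56, 4.661 and 4.219 CPM against 2.55, 3.334 and 2.372 CPM, passed at 1.40 ± 0.52 (adjusted p = 0.0408), and it no longer passed without run 1 (adjusted p = 0.439), run 2 (0.0758) or run 3 (0.0901).

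Thus 3 of the 10 members were called higher in AP RFP+ basal-like cells and none lower, against 28.1% of the 11776 genes tested in either direction, 12.7% higher and 15.4% lower. The median log2 difference was 0.51 over the members and -0.06 over all genes. The other members did not pass: Inhba differed by 1.75 (adjusted p = 0.0913), and Id1 by -0.87 (adjusted p = 0.357), with its luminal-like sums at 1452, 1077 and 989 CPM above the basal-like sums at 655.5, 671.8 and 592.5 CPM in every run. The Id1 difference passed when only these 2 populations were fitted (-0.80, adjusted p = 0.02). Smad7 was nearly level, at 74, 135.8 and 112.4 CPM in basal-like and 75.12, 140.6 and 101.5 CPM in luminal-like cells. Of the 39 other pathway genes tested, 14 were higher and 2 lower in basal-like cells. By smallest p these were Tgfbr3, the co-receptor betaglycan (log2 difference 1.91), Tgfb1, a ligand (1.93), and Ski, a repressor of SMAD-driven transcription (1.27).

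In the VP the same comparison took in nearly the whole set, with 9 of the 10 members higher in RFP+ basal-like cells, none lower, and 35.5% of all genes called in either direction (16.9% higher and 18.6% lower). The median log2 difference was 3.54 over the members and -0.04 over all genes. Bmp2 had 17.12, 19.48 and 23.67 CPM in basal-like and 0, 0.3976 and 1.127 CPM in luminal-like cells (log2 difference 4.94 ± 0.67, SE, adjusted p = 9.16e-07). Bmp7 had 51.37, 53.56 and 37.87 CPM against 7.475, 5.964 and 6.482 CPM (2.88 ± 0.27, adjusted p = 1.17e-09). No run overlapped for either ligand.

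All 3 Id genes were higher in VP RFP+ basal-like cells. Id1 had 308.2, 194.8 and 191.7 CPM there and 23.67, 15.9 and 30.43 CPM in luminal-like cells (log2 difference 3.31 ± 0.74, adjusted p = 0.00142). Id2 had 139.4, 74.98 and 92.32 CPM against 34.88, 23.26 and 24.52 CPM (1.89 ± 0.31, adjusted p = 1.35e-05). Id3 had 276.4, 133.4 and 142 CPM against 7.475, 11.93 and 9.581 CPM (4.19 ± 0.66, adjusted p = 3.83e-05). Smad7 had 36.69, 53.56 and 49.71 CPM against 18.69, 22.27 and 24.24 CPM (1.11 ± 0.35, adjusted p = 0.0132), a call that was lost without run 2 (adjusted p = 0.122). In all 4 genes the basal-like and luminal-like sums were apart in every run.

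Bmp4, Smad6 and Inhba also passed in the VP (adjusted p = 3.84e-08, 0.000102 and 6.93e-05), but their luminal-like levels rested on 1 to 3 UMIs. That of Bmp2 rested on 6 UMIs, against 37 in basal-like cells (pooled log2 ratio 5.08, 95% counting interval 3.82 to 6.61). Pooled over runs, Bmp4 had 28 UMIs in basal-like and 1 UMI in luminal-like cells, a log2 ratio of 7.26 (95% counting interval 4.66 to 12.61). Inhba had 14 and 1 UMIs (6.26, 3.54 to 11.66), and Smad6 had 9 and 3 UMIs (4.04, 2.04 to 6.56). Tgfb2 was the member left out, with 0, 6.817 and 7.101 CPM in basal-like and 10.59, 10.14 and 11.27 CPM in luminal-like cells (log2 difference -1.01, adjusted p = 0.218). Of the other pathway genes tested, 16 were higher and 1 lower in VP basal-like cells, led by Nbl1, a BMP antagonist (log2 difference 2.88), Tgfbr3 (2.54) and Ctgf, a TGF-β target (5.16). VP luminal-like cells were deep, with a median of 40999.5 to 57772 UMIs in all but the RFP- cells of run 3 (15618).

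The difference between lobes was tested directly, in a contrast added after the data were seen. The basal minus luminal difference was larger in the VP than in the AP for 6 members, against 6.76% of all genes called in either direction (4.1% larger in the VP and 2.66% smaller). The gap on the log2 scale was 4.47 ± 0.82 (SE) for Bmp2 (adjusted p = 0.000806), 4.18 ± 0.98 for Id1 (0.012), 2.21 ± 0.41 for Id2 (0.00086) and 3.64 ± 0.84 for Id3 (0.0104). It was 4.37 ± 0.96 for Bmp4 (0.00436) and 4.05 ± 0.79 for Smad6 (0.0016), both resting on the 1 and 3 luminal-like UMIs above. The Bmp2 gap rests on the 6 luminal-like UMIs above. Id1 and Id2 were lower in basal-like than in luminal-like cells of every AP run and higher in every VP run. Tgfb2 had a gap of opposite sign that did not pass, -2.42 ± 0.80 (adjusted p = 0.0657). It passed at resolution 0.5 (0.0394), with at least 20 cells per sum (0.0431), with no filter on low counts (0.0129) and without the 5% of cells with most UMIs (0.0213). With run as a block, Tgfb2 (0.0329), Smad7 (0.0277) and Inhba (0.0411) also passed, and 1578 genes were called in place of 796. Without run 2 only Id2 of the members passed and 147 genes were called, and without run 3 only Bmp2 and 197 genes. The luminal-like cells differed in makeup between these lobes. In each run 87.7% to 90.0% of VP RFP+ luminal-like cells lay in a cluster led by Sbpl or Spink1. The largest cluster of AP RFP+ luminal-like cells was led by Psca or Clu and held 50% to 93.0%. In run 2, lobes mixed, intact cells of the Sbpl and Psca clusters had Id1 at 14.42 and 1788 CPM and Id3 at 9.61 and 724.8 CPM. The part of this makeup in the gaps was not tested.

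**Figure D2:**
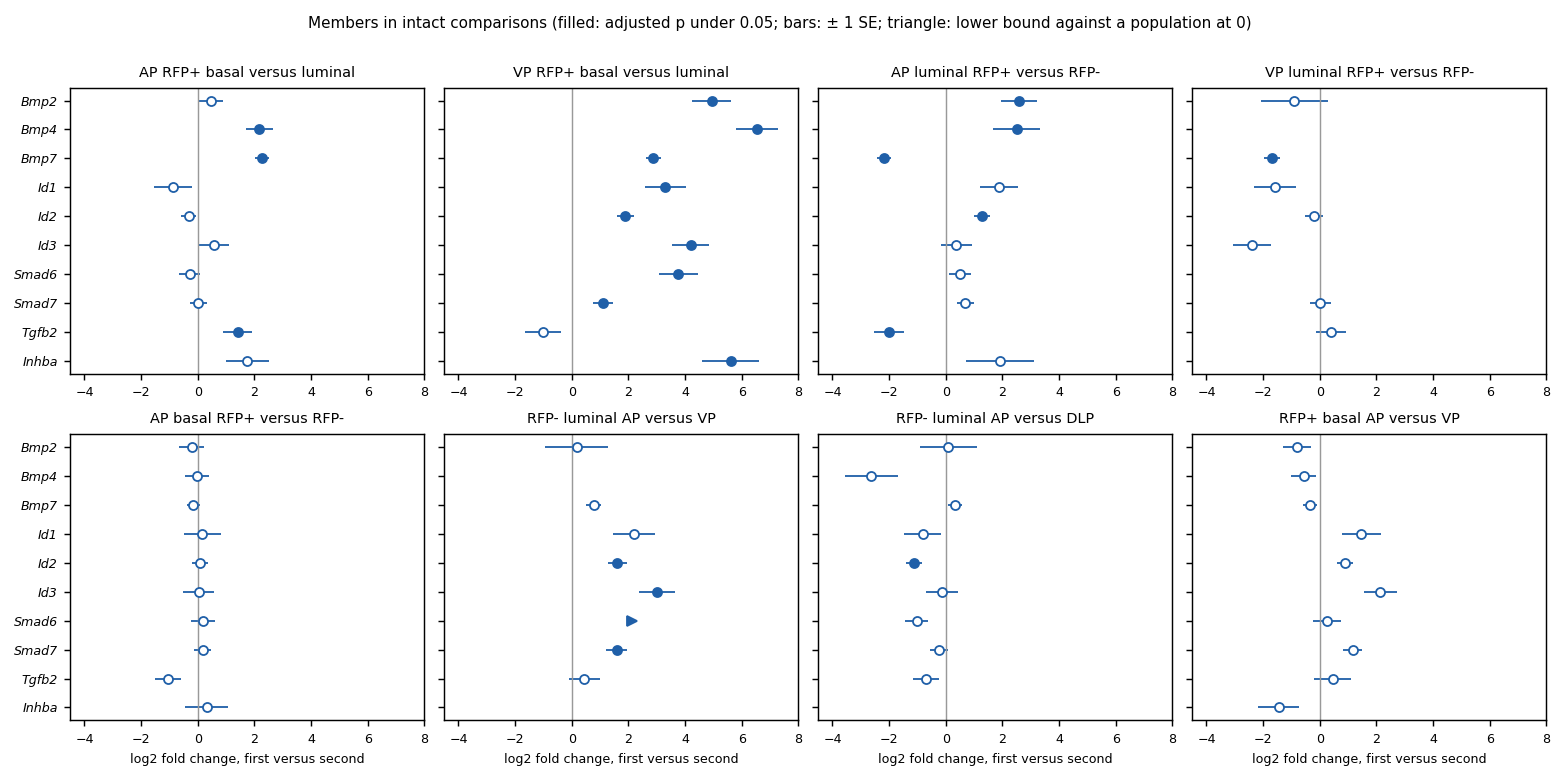
Log2 fold change of each member in the 8 intact comparisons, first population against second, with bars of 1 SE and filled points at an adjusted p under 0.05. The triangle is the lower bound for Smad6 against a population with 0 UMIs, members without a fold are left out, and Bmp4, Smad6 and Inhba in the VP panel rest on 1 to 3 luminal-like UMIs. Filled points stand for 9 members in the VP basal against luminal panel and for none in the AP basal RFP panel.

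Within AP luminal-like cells, RFP+ and RFP- fractions differed in 5 members, 3 higher and 2 lower in RFP+ cells, against 19.8% of all genes (10.9% higher and 8.92% lower). Bmp2 had 6.473, 8.891 and 9.962 CPM in RFP+ and 1.029, 1.832 and 0 CPM in RFP- cells (log2 difference 2.59 ± 0.64, adjusted p = 0.00372). Id2 had 197.5, 246.2 and 260.4 CPM against 139.5, 77.25 and 69.06 CPM (1.29 ± 0.28, adjusted p = 0.00132). Bmp7 was the reverse, with 7.846, 9.447 and 6.641 CPM against 37.57, 36.03 and 34.53 CPM (-2.18 ± 0.25, adjusted p = 1.51e-06). Tgfb2 was also lower in RFP+ cells, with 2.55, 3.334 and 2.372 CPM against 9.779, 11.3 and 12.43 CPM (-2.00 ± 0.52, adjusted p = 0.0057). In these 4 genes no RFP+ sum overlapped an RFP- sum. With cells under 7500 UMIs, the limit in the study's methods, the Bmp2 difference was 0.92 and did not pass (adjusted p = 0.811).

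Bmp4 was higher in AP RFP+ luminal-like cells as well (adjusted p = 0.0293), with 19 against 2 UMIs, a pooled log2 ratio of 2.65 with a counting interval of 0.596 to 5.79, and did not pass with DESeq2 (0.0615) or without run 1 (0.0522), run 2 (0.366) or run 3 (0.0734). Id1, at 492.5, 238.2 and 222.4 CPM in RFP- cells, lay lower than in RFP+ cells in every run but did not pass (log2 difference 1.88, adjusted p = 0.0552). It passed with run as a block (0.00726), and among other alternatives with DESeq2 (0.0153) and without run 1 (0.000365), but not without run 2 or run 3. Smad7 passed with the block (adjusted p = 0.0106), and the block called 3496 genes in place of 2329. Leaving out run 2 or run 3 left 1 member called, Bmp7, and 753 and 1289 genes. The median difference was 0.99 over the members and 0.02 over all genes. Of the other pathway genes, 8 were higher and 2 lower in RFP+ cells, led by Ctgf (4.21), Tgfbr2, the type II TGF-β receptor (1.84), and Acvrl1, a type I receptor (3.62, with 92 against 4 UMIs).

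The same AP fractions differed in makeup. In each run the cluster with most AP RFP+ luminal-like cells was led by Psca or Clu and held 50% to 93.0% of them, whereas that with most RFP- cells held 82.8% to 95.3% and was one of those led by Tgm4 and Pbsn. Basal markers summed to 2818, 1361 and 1166 CPM in the RFP+ and to 743.6, 217.6 and 37.04 CPM in the RFP- luminal-like sums, below the 9195 CPM of the lowest basal-like sum. Bmp2, Bmp4 and Id2 were high and Bmp7 and Tgfb2 low in the fraction with more basal marker RNA, and the part of that RNA in these differences was not tested.

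Within VP luminal-like cells, RFP+ and RFP- fractions differed in 1 member, against 0.144% of all genes (0.00849% higher and 0.136% lower in RFP+ cells). Bmp7 had 7.475, 5.964 and 6.482 CPM in RFP+ and 14.02, 28.34 and 13.28 CPM in RFP- cells (log2 difference -1.69 ± 0.29, adjusted p = 0.00395). It was lower in RFP+ cells in every run, yet it did not pass without run 2 (adjusted p = 1.0), without run 3 (0.0977) or with only these 2 populations fitted (0.0821). Over the 7 members with a fold the median difference was -0.895, beside 0.06 over all genes. Id3 differed by -2.39 (adjusted p = 0.328), with RFP- cells at 143, 20.24 and 13.28 CPM, and DESeq2 called it (-2.65, adjusted p = 0.00291). The run 1 RFP- sum held only 10 cells, and Id1 turned from -1.57 to 0.75 without that run. With run as a block 66 genes were called in place of 17. No other pathway gene was called, and by smallest p they were Tgfbr2 (1.11), Smad4, the common partner SMAD (0.81), and Smad2, a TGF-β receptor SMAD (0.99).

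Whether the RFP difference of luminal-like cells differed between lobes was also tested after the data were seen. No member passed, where 3.07% of all genes (362) were called, 1.39% larger and 1.68% smaller in the VP, and 1948 genes had an unadjusted p under 0.05. DESeq2 and the fit with run as a block each called 4 members. Id3 was higher in RFP+ cells of every AP run and lower in RFP+ cells of every VP run, a gap of -2.77 ± 0.87 (adjusted p = 0.0866, with the block 0.0139 and with DESeq2 0.00438). Id1 (0.0216), Id2 (0.0128) and Tgfb2 (0.0243) passed with the block too, which called 1146 genes. Leaving out run 2 left 5 genes and leaving out run 3 left 80.

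Basal-like cells of the AP showed no called member between RFP+ and RFP- fractions, and 0.0% of all genes were called, although 183 genes had an unadjusted p under 0.05 and DESeq2 called 1. Bmp7, for example, had 37.97 ± 4.95 CPM in RFP+ and 42.68 ± 13.0 CPM in RFP- cells (SD, n = 3). The widest difference was that of Tgfb2, at 11.56, 4.661 and 4.219 CPM in RFP+ and 23.41, 8.916 and 12.83 CPM in RFP- cells (log2 difference -1.06, adjusted p = 1.0), lower in RFP+ cells in every run. The median was 0.05 over the members and 0.01 over all genes. Tgfb3, Twsg1 and Bmpr2, a ligand, a BMP-binding protein and a receptor, had the smallest p of the pathway list, and none was called.

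Between lobes, RFP- luminal-like cells of the AP were higher than those of the VP in 4 members, none was lower, and 12.8% of all genes were called (6.57% higher and 6.22% lower). Id2 had 139.5, 77.25 and 69.06 CPM in the AP and 25.24, 27.76 and 41.74 CPM in the VP (log2 difference 1.61 ± 0.32, adjusted p = 0.000855). Id3 had 515.2, 372.8 and 374.3 CPM against 143, 20.24 and 13.28 CPM (3.01 ± 0.64, adjusted p = 0.00296), and Smad7 had 48.89, 59.54 and 92.54 CPM against 19.63, 27.18 and 13.28 CPM (1.59 ± 0.37, adjusted p = 0.00359). Smad6 had 30 UMIs in the AP and 0 in the VP, which allows up to 3, so it was at least 4.39-fold higher (adjusted p = 0.000552). The AP sums lay above the VP sums in every run for all 4 genes. In each run the largest AP cluster had Tgm4 and Pbsn among its leading genes and held 82.8% to 95.3% of the cells. That of the VP was led by Sbpl or Spink1 and held 69.7% to 73.7%. The part of this makeup in the differences was not tested.

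The call on Id3 was lost without run 2 (adjusted p = 0.0987) or run 3 (0.138) and with only these 2 populations fitted (0.135), that on Smad6 without run 2 (0.0708) and that on Smad7 without run 3 (0.14). Id1 differed by 2.20 (adjusted p = 0.0529), resting on the same 10-cell VP sum of run 1 (207.5 CPM, beside 15.62 and 9.486 CPM in runs 2 and 3), and passed without run 1 (1.21e-05) and with run as a block (0.00619). Bmp7 at 0.77 (adjusted p = 0.0503) passed with the block as well (0.0458). Without run 2 or run 3, 603 and 644 genes were called in place of 1506. The median was 1.60 over the 8 members with a fold, with Smad6 at its bound, and 0.07 over all genes. Of the other pathway genes, 6 were higher and 2 lower in the AP, among them Smad9, a BMP receptor SMAD (57 against 0 UMIs, at least 8.35-fold higher), Nbl1 (log2 difference 1.68) and Tgfbr2 (-1.53).

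Against the DLP, RFP- luminal-like cells of the AP were lower in 1 member, Id2, while 1.15% of all genes were called (0.374% higher and 0.773% lower). Id2 had 139.5, 77.25 and 69.06 CPM in the AP and 329.1, 136.3 and 169.1 CPM in the DLP (log2 difference -1.13 ± 0.28, adjusted p = 0.038). It was lower in the AP in every run, but the groups overlapped, and the call was lost without run 2 or run 3 (adjusted p = 0.408 in both) and under 4 other alternatives (0.0505 to 0.969). The 4 seminal vesicle and mesonephric markers (Svs2, Pax2, Svs4 and Svs5) summed to 87010, 36590 and 7.747 CPM in the DLP RFP- luminal-like sums and to at most 17.82 CPM in the other intact luminal-like sums, and the 7 hematopoietic markers summed to 3694, 1827 and 441.6 CPM in the DLP and to 105.7, 121.3 and 131.9 CPM in the AP. The part of either in the difference was not tested. The median difference was -0.69 over 9 members and 0.01 over all genes. With run as a block 422 genes were called in place of 135, and without run 1 or run 2 62 and 19 were. No other pathway gene was called, with Nbl1, Bambi and Skil at the smallest p.

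Between RFP+ basal-like cells of the AP and the VP no member was called, where 0.272% of all genes (32) were called, 0.0594% higher and 0.212% lower in the AP, and 802 had an unadjusted p under 0.05. DESeq2 called 1 member, Id3. The Id genes and Smad7 were nevertheless higher in the AP in every run. Id3 had 1123, 737.6 and 548 CPM in the AP against 276.4, 133.4 and 142 CPM in the VP (log2 difference 2.14, adjusted p = 0.198, with run as a block 0.00379). Smad7 had 74, 135.8 and 112.4 CPM against 36.69, 53.56 and 49.71 CPM (1.17, adjusted p = 0.197, with the block 0.00803). The block called 2 members and 137 genes, and without run 2 or run 3 no gene was called. Without run 1, 3 members passed: Id1 (0.046), Id2 (0.00836) and Id3 (8.51e-06). The median was 0.36 over the members and 0.05 over all genes. Bmp3, Tgfb3 and Ctgf had the smallest p among the pathway genes, and none was called. The 8 comparisons and 2 differences share sums, so their values are not independent of each other.

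Castrated and intact cells could be set side by side in run 2 only, in 6 populations with 1 sum each, so there is no replicate check and no test. Values are CPM of all UMIs, with 95% Poisson intervals that cover counting error only. The clearest difference was that of Tgfb2 in AP RFP+ luminal-like cells, with 199 UMIs (58.23 CPM, interval 50.42 to 66.90) in 193 castrated cells and 6 UMIs (3.428 CPM, 1.258 to 7.461) in 99 intact cells, a log2 ratio of 4.09 (2.94 to 5.55). Fibroblast markers summed to 7.022 CPM in those castrated and to 2.857 CPM in those intact cells. In VP RFP+ luminal-like cells it stood at 46.3 against 5.551 CPM (log2 ratio 3.06) and in AP RFP- luminal-like cells at 32.9 against 11.03 CPM (1.58). In DLP RFP- luminal-like cells, with 16.8 against 13.21 CPM, the counting intervals overlapped. Tgfb2 was thus higher after castration in 3 of 4 luminal-like pairs past 2-fold.

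Bmp7 was lower after castration in basal-like cells of both lobes, with 12.88 against 43.52 CPM in the AP (log2 ratio -1.76) and 31.29 against 67.35 CPM in the VP (-1.11). Castrated and intact basal-like cells lay mostly in different clusters, as given below. Bmp7 was also lower in the RFP- luminal-like cells of the AP (10.61 against 35.18 CPM, -1.73) and of the DLP (3.734 against 22.22 CPM, -2.57, from 2 castrated UMIs). The RFP+ luminal-like pairs went apart, at 4.974 against 9.712 CPM in the AP and 6.093 against 3.265 CPM in the VP. Bmp4 in AP basal-like cells was higher, at 21.97 against 10.15 CPM (1.11), while fibroblast markers summed to 15.15 and 23.21 CPM. In AP RFP+ luminal-like cells Bmp2 stood at 2.341 against 9.141 CPM (-1.97) and Bmp4 at 0.5852 against 3.428 CPM (-2.55, from 2 castrated UMIs). Basal markers in that pair summed to 249.9 CPM in castrated and 1361 CPM in intact cells, and their part in these ratios was not tested.

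The Id genes differed in direction between populations. In VP RFP+ basal-like cells Id1 stood at 748.7 against 244.9 CPM (log2 ratio 1.61), Id2 at 329.8 against 94.3 CPM (1.81) and Id3 at 433.3 against 167.8 CPM (1.37), all higher after castration. In DLP RFP- luminal-like cells they were lower, with Id1 at 132.5 against 289.5 CPM (-1.13), Id2 at 48.54 against 117.1 CPM (-1.27) and Id3 at 65.34 against 244.4 CPM (-1.90). In that DLP pair the hematopoietic markers summed to 61.6 CPM in castrated and 1827 CPM in intact cells and the seminal vesicle and mesonephric markers to 13.07 and 36590 CPM, and their part in the ratios was not tested. In AP RFP- luminal-like cells Id3 stood at 80.67 against 364 CPM (-2.17) and Id2 at 29.72 against 75.42 CPM (-1.34), while Id1 stood at 322.7 against 232.5 CPM. In AP RFP+ luminal-like cells Id2 stood at 75.49 against 253.1 CPM (-1.75). Whether these ratios differ between lobes beyond replicate error was not tested, since each pair is 1 sum against 1.

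Smad7 was higher after castration in VP RFP+ basal-like cells (151.7 against 67.35 CPM, log2 ratio 1.17) and lay within 2-fold in both AP luminal-like pairs and in the DLP. Smad6 was lower in AP RFP+ luminal-like cells (2.048 against 9.141 CPM, -2.16), and in AP RFP- luminal-like cells it went from 15 UMIs to 0, at least 1.40-fold lower. Counted past 2-fold, AP RFP+ basal-like cells had 2 members higher and 1 lower of 10 with a ratio, beside 1.23% of genes higher and 8.8% lower. VP RFP+ basal-like cells had 4 higher and 1 lower of 10, beside 2.62% and 10.1%. AP RFP+ luminal-like cells had 1 higher and 4 lower of 9, beside 9.43% and 5.13%. With the 50 most abundant genes left out of the library sizes, 6 of these 9 were lower, beside 521 of 7150 genes. AP RFP- luminal-like cells had 1 higher and 3 lower of 7 (4.44% and 12.8%), and DLP RFP- luminal-like cells 0 higher and 5 lower of 8 (2.18% and 9.06%).

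In VP RFP+ luminal-like cells 6 of 7 members were higher past 2-fold, but so were 42.0% of all genes there, and 2.29% were lower. The median ratio of all genes in that pair was 0.89 and turned to -0.10 once the 50 most abundant genes were left out of the library sizes. On that scale 4 members stayed past 2-fold, with Tgfb2 at 2.07, Id1 at 1.71 and Id3 at 1.27, while Id2 (0.64) and Smad7 (0.99) did not. The medians of all genes in the other 5 pairs lay between -0.28 and 0.19.

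Castrated and intact cells of a population lay mostly in different clusters. In AP RFP+ luminal-like cells 79.8% of intact cells were in the cluster led by Psca and Wfdc2 and 82.9% of castrated cells in one led by Pnliprp1 and Krt19. In AP RFP+ basal-like cells 94.9% of intact cells were in a cluster led by Lgals7 and Apoe and 93.7% of castrated cells in another led by Apoe and Dcn, and in VP RFP+ luminal-like cells 90.0% of intact and 6.35% of castrated cells were in the Sbpl cluster. In VP RFP+ basal-like cells 59.0% of intact cells were in a cluster led by Apoe and Spon2 and 87.5% of castrated cells in one led by Apoe and Cxcl14, which held 5.13% of the intact cells. The latter is also the cluster of most castrated AP RFP+ basal-like cells. Over all its run 2 cells, lobes mixed, 266 castrated and 20 intact cells had Id1 at 1021 and 1043 CPM and Id2 at 397.8 and 401.1 CPM. Id3 stood there at 782.7 and 1284 CPM and Smad7 at 257.7 and 126.1 CPM. Only 4 of those intact cells were VP RFP+ cells. In the Lgals7 cluster, lobes mixed, 33 castrated and 301 intact cells had Id1 at 716.1 and 572.1 CPM. Id2 stood there at 211 and 177.4 CPM, Id3 at 543.4 and 626.4 CPM and Smad7 at 172.6 and 129.1 CPM. Bmp7 in the Lgals7 cluster stood at 47.95 CPM (26.84 to 79.09) in castrated and 59.77 CPM (52.12 to 68.24) in intact cells. In the Apoe and Cxcl14 cluster Bmp7 stood at 16.95 CPM (30 UMIs) and 34.38 CPM (3 UMIs). The counting intervals overlapped in both clusters. The part of cluster makeup in the basal-like ratios was not tested. Within the Psca cluster, a choice made after the data were seen, 16 castrated and 79 intact AP RFP+ cells could be compared. Tgfb2 stood there at 31.99 against 1.175 CPM (5 and 1 UMIs, log2 ratio 4.77, 1.61 to 10.33). Id1, at 1017 against 2106 CPM, Id2, at 236.7 against 465.5 CPM, and Id3, at 351.9 against 831.1 CPM, had log2 ratios of -1.05, -0.98 and -1.24. Within the Sbpl cluster, 11 castrated and 11 intact AP RFP+ cells gave ratios of -1.64 for Id1, -1.25 for Id2 and -4.12 for Id3, the last from 2 castrated UMIs. The AP RFP- cells of that cluster, 10 castrated and 19 intact, went the other way. Their ratios were 3.62 for Id1 (1.89 to 6.00), 2.26 for Id2 (0.26 to 4.78) and 0.33 for Id3 (-0.95 to 1.58), with 3, 3 and 14 intact UMIs. Over all run 2 cells, Tgfb2 stood at 69.52, 55.01 and 47.94 CPM in the castrated cells of the Pnliprp1, Ang5 and Clca3a2 clusters, and at 16.49, 5.12 and 0.82 CPM in the intact cells of the Tgm4, Sbpl and Psca clusters. Castrated cells that lay in the Sbpl cluster (48 cells) had 7.073 CPM (4.192 to 11.18), and the interval of its 261 intact cells overlapped (3.952 to 6.526). Those in the Psca cluster (41 cells) had 14.04 CPM, from 6 UMIs.

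**Figure D3:**
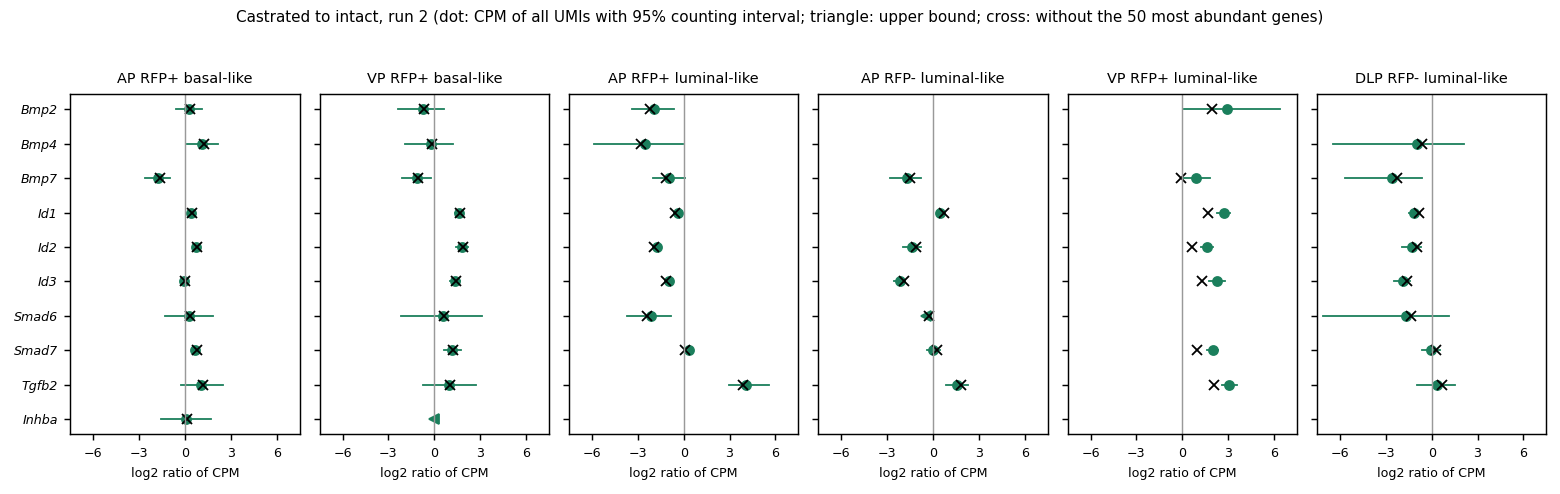
Log2 ratio of CPM, castrated to intact, for each member in the 6 populations of run 2, with 95% counting intervals (1 sum per treatment, no replicate check). Crosses give the ratio without the 50 most abundant genes, a triangle is an upper bound and members without a ratio are left out. Tgfb2 lies right of 0 in both RFP+ luminal-like panels, and Bmp7 lies left of 0 in both basal-like panels.

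In urogenital sinus explants the members differed in both directions between the first and the last day of culture with dihydrotestosterone. The epithelium is taken as the prostatic epithelium-like, Krt5 Krt14 basal-like and Krt4 Psca luminal-like clusters together, with 470, 476, 995 and 1936 cells at days 0, 1, 3 and 6, and the mesonephric duct-like, urothelium-like and mesenchyme-like cells and 1 unnamed cluster are left out. Each day is 1 pool under 1 barcode, so time, pool and barcode cannot be told apart and no test is given. The makeup of the pooled epithelium differed by day. Krt5 Krt14 basal-like cells numbered 6, 208 and 322 at days 1, 3 and 6. Krt4 Psca luminal-like cells numbered 7, 37, 100 and 79 at days 0, 1, 3 and 6. The part of this makeup in the courses below was not tested. From day 0 to day 6, 2 members were higher past 2-fold and 4 lower, beside 6.51% and 8.76% of 11819 genes. The median log2 ratio was -0.39 over the members and -0.14 over all genes.

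Bmp7 and Bmp2 were the ligands with higher levels at day 6. Bmp7 stood at 14.85, 37.74, 55.68 and 66.2 CPM at days 0, 1, 3 and 6 (log2 ratio of day 6 to day 0 2.16, counting interval 1.93 to 2.39), higher at each later day. Bmp2 stayed at 8.809, 8.417 and 9.688 CPM up to day 3 and reached 24.1 CPM at day 6 (1.45, 1.15 to 1.76). The other ligands had lower levels, Bmp4 going from 7.97 over 5.883 and 3.592 to 3.418 CPM (-1.22), Tgfb2 from 24.92 over 18.19 and 12.46 to 11.95 CPM (-1.06) and Inhba from 1.846 over 0.9955 and 0.7075 to 0.44 CPM (-2.07).

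The targets and inhibitors were mostly lowest at day 1 or day 3. Id3 stood at 2587, 1806, 1555 and 1912 CPM, Id1 at 1568, 1312, 1161 and 1230 CPM, and Id2 at 440.1, 317.2, 392.9 and 623.2 CPM, so Id2 alone among the Id genes ended above its first day (log2 ratio 0.50). Smad7 stood at 220.5 CPM at day 0 and 110.3 CPM at day 1, stood at 112.4 CPM at day 3 and was back at 209.5 CPM at day 6 (-0.07). Smad6 went from 18.12 to 7.421 and 6.368 CPM and then to 8.664 CPM (-1.07). With the exception of Smad6, no target or inhibitor ended more than 2-fold from where it began.

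**Figure D4:**
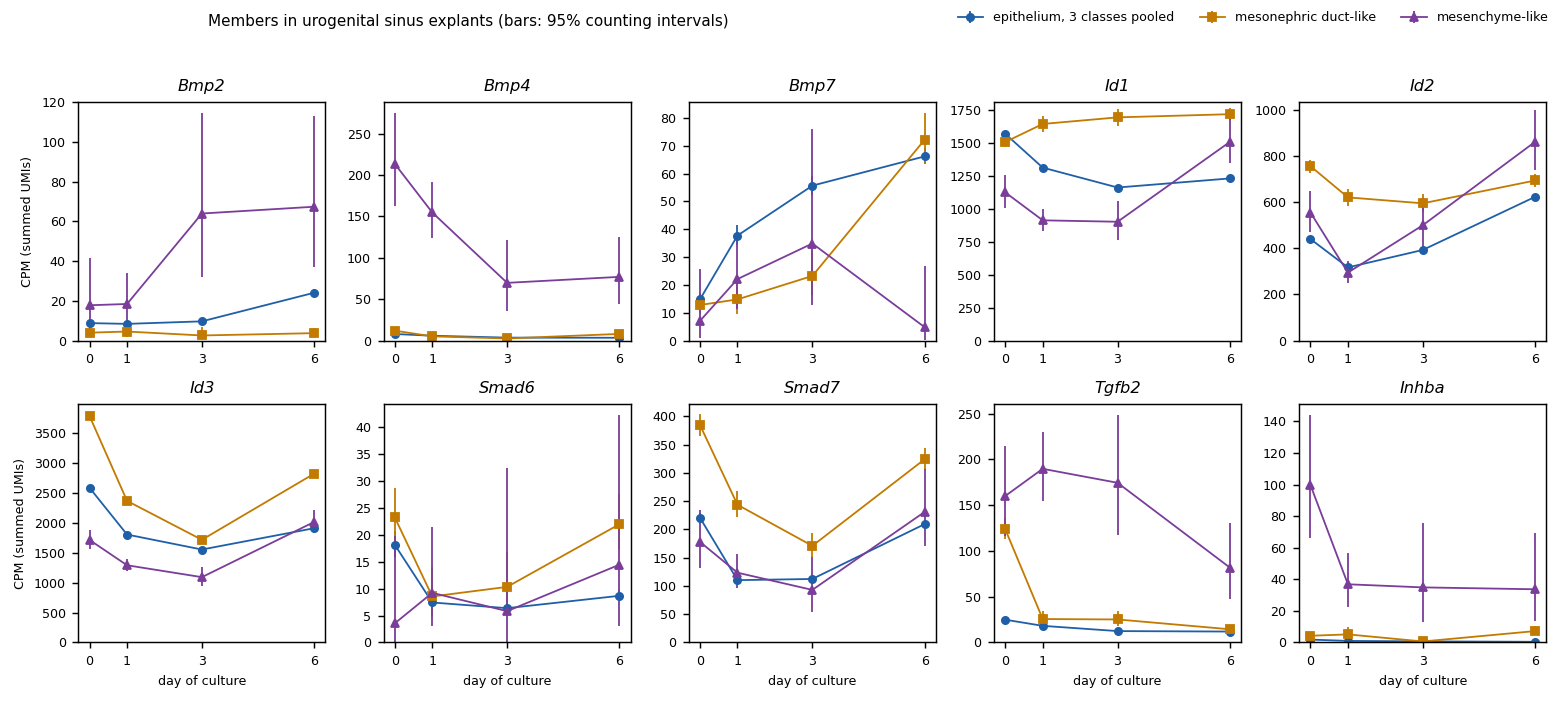
CPM of each member (linear axis, own scale per panel) at days 0, 1, 3 and 6 of explant culture in the epithelium (3 epithelial classes pooled, blue), mesonephric duct-like (orange) and mesenchyme-like cells (purple), with 95% counting intervals and 1 pool per day. In the epithelium Bmp7 goes from 14.85 to 66.2 CPM while Smad7 goes from 220.5 to 110.3 CPM and back to 209.5 CPM, and Bmp4, Tgfb2 and Inhba are highest in mesenchyme-like cells.

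The emerging adult-like classes differed in these genes. At days 3 and 6 the Krt5 Krt14 basal-like cells (208 and 322 cells) had 26.36 and 21.11 CPM of Bmp7, against 67.51 and 75.18 CPM in prostatic epithelium-like cells, and 1812 and 1836 CPM of Id1 against 1001 and 1143 CPM. The Krt4 Psca luminal-like cells (100 and 79 cells) had 12.56 and 19.57 CPM of Bmp7, 796.8 and 631.2 CPM of Id3 and 58.63 and 68.5 CPM of Smad7, below the pooled epithelium in all 3 genes at both days. These classes were defined on other genes, the members having been kept out of the clustering, and with 1 library the differences were not tested.

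Outside the epithelium, mesonephric duct-like cells (198, 94, 91 and 277 cells) began with Tgfb2 at 123.7 CPM and went to 25.63, 25.17 and 14.44 CPM, while their Bmp7 went from 12.8, 14.81 and 23.23 to 72.2 CPM. Mesenchyme-like cells, few at 27, 69, 24 and 21, had the highest Bmp4 (213.5, 154.8, 69.78 and 77.02 CPM), Tgfb2 (160.1, 189.8, 174.5 and 81.83 CPM) and Inhba (99.63, 36.86, 34.89 and 33.7 CPM) of the 3 groups on every day. Since cells had been sorted for EPCAM, these few mesenchyme-like cells do not sample the explant mesenchyme.

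Of the 52 other pathway genes 46 had at least 50 UMIs in the explant epithelium, and 9 were higher and 12 lower past 2-fold at day 6, with a median log2 ratio of -0.19. Over all 11819 genes 6.51% were higher and 8.76% lower, with a median of -0.14. Among the highest ratios were those of Sostdc1, a BMP antagonist (1.091 to 25.69 CPM, log2 ratio 4.56), and Bmp5, a ligand (0.2517 to 3.012 CPM, 3.58, from 3 UMIs at day 0). The lowest ratios were those of Pmepa1, an inhibitor of TGF-β signalling (306.2 to 32.05 CPM, -3.26), Fst, which binds activin (5.369 to 0.7446 CPM, -2.85), and Smad9 (3.943 to 0.6092 CPM, -2.69).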

How the data were processed

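The authors deposited 1 matrix of UMI counts (whole numbers per gene and cell) and 1 matrix of sample barcode counts for each of the 4 libraries, made, per the labels and the study's methods, with Cell Ranger 3.1.0 on mm10 (GRCm38) from polyA RNA of droplet 3′ libraries. No normalisation was applied to the deposited counts. Adult cells were kept with more than 750 and fewer than 7500 detected genes and under 10% mitochondrial UMIs, and explant cells with more than 1000 genes and under 7.5%. The study's methods give the adult upper limit in UMIs, which was tried as an alternative. Sorted populations were told apart by the sample barcode: exactly 1 had to exceed the HTODemux threshold and the additional threshold that the study's supplement gives for it, and cells with several barcodes (326, 962, 452 and 823) or with none were left out, with no further doublet caller.

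Each library was clustered on its own (3000 variable genes without the members and the pathway list, 50 components, 20 neighbours, leidenalg 0.10.2 at resolution 1), and clusters were named from fixed markers. Counts were summed per run, lobe, RFP fraction and compartment where at least 10 cells were present, giving 31 intact sums. edgeR 4.0.16 (R 4.3.3) was fitted once over all of them (TMM, filterByExpr, robust quasi-likelihood test, no run term), with Benjamini-Hochberg adjustment over the 11776 genes of each contrast and a threshold of 0.05. DESeq2 1.42.0 was an alternative. The edgeR and DESeq2 fits were tested on simulated counts with known fold changes, for AP RFP+ basal versus luminal and VP luminal RFP+ versus RFP-.

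Sums of a run share 1 library, so run was used as a block in an alternative. Deviations from the population means correlated between the 2 sums of a run (1964 genes) by 0.342 to 0.868, except for RFP- luminal AP versus VP in run 2 (0.01). The 2 differences between lobes and the castration ratios within a cluster were added after the data were seen. The members, lists and comparisons were chosen with earlier results of these data known. The 10 members are named throughout, and of the 52 other pathway genes those with the 3 smallest p per comparison or, in explants, the 3 highest and 3 lowest ratios, of which 1 is not reported here. Ratios need more than 3 UMIs in 1 of the sums, and a sum at 0 was set to 3 UMIs for a bound. Intervals (95%, exact) cover counting error only.

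Alternatives were another clustering resolution (0.5), at least 20 cells per sum, no filter on low counts, cells under 7500 UMIs, leaving out the 5% of cells with most UMIs, library sizes without the 50 most abundant genes, only the populations compared, run as a block and leaving out each run. Promoters were from RefSeq, GRCm38.p6.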

Additional observations from a re-analysis of the deposited data

Results flagged for a closer look

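Several differences between basal-like and luminal-like RFP+ cells were unlike in the VP and the AP. The gap between the lobes on the log2 scale, VP minus AP, was 4.47 for Bmp2, 4.37 for Bmp4, 4.18 for Id1, 2.21 for Id2, 3.64 for Id3 and 4.05 for Smad6, and each passed the test of the difference itself (edgeR). For Bmp2 the basal minus luminal difference was 0.47 in the AP and 4.94 in the VP, and for Id2 it was -0.33 and 1.89. The Bmp2, Bmp4 and Smad6 gaps rest on 6, 1 and 3 UMIs in VP luminal-like cells. That test was added after the data were seen, and it called 6.76% of all genes. Leaving out 1 run left 1 to 6 members called. RFP+ luminal-like cells of the 2 lobes lay mostly in different clusters, and the part of that makeup was not tested.

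Tgfb2 was higher in basal-like than in luminal-like cells in every AP run and lower in every VP run, with a gap of -2.42 that did not pass (adjusted p = 0.0657), but passed with run as a block (0.0329) and under 4 other alternatives (0.0129 to 0.0431). Id3 was higher in RFP+ than in RFP- luminal-like cells in every AP run and lower in every VP run, with a gap of -2.77 that did not pass either (adjusted p = 0.0866), but passed with run as a block (0.0139) and with DESeq2 (0.00438). The run 1 VP RFP- luminal-like sum behind the last value held 10 cells.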

How the results depend on the processing

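Bmp4, Smad6 and Inhba had 0 to 3 UMIs in VP luminal-like populations, so ratios against those are bounds, carry wide counting intervals or are not given. Cells under 7500 UMIs left no VP luminal-like sums, so that alternative covers 5 of the 8 comparisons. In the range over leaving out 1 run, the numbers of genes called were 1832 to 2633 (AP basal versus luminal), 2190 to 3789 (VP basal versus luminal), 753 to 1978 (AP luminal RFP), 1 to 21 (VP luminal RFP), 0 to 0 (AP basal RFP), 603 to 1257 (RFP- luminal AP versus VP), 19 to 94 (AP versus DLP), 0 to 32 (RFP+ basal AP versus VP), 147 to 549 (basal versus luminal, VP minus AP) and 5 to 315 (luminal RFP, VP minus AP). Members called ranged from 2 to 2, 8 to 9, 1 to 5, 0 to 1, 0 to 0, 2 to 5, 0 to 1, 0 to 3, 1 to 6 and 0 to 1 in the same order.

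With run as a replicate block, 3496, 66, 422, 137, 1578 and 1146 genes were called for AP luminal RFP, VP luminal RFP, AP versus DLP, RFP+ basal AP versus VP and the differences between lobes for basal versus luminal and for RFP, and 2 and 4 members for RFP+ basal AP versus VP and the RFP difference between lobes. The block lost no call and added 13, all given above, and turned Bmp4 in AP basal-like cells to 0.0183. DESeq2 moved the genes called to 49 (VP luminal RFP), 1 (AP basal RFP) and 565 (RFP difference between lobes), and members to 2, 1 and 4 (VP luminal RFP, RFP+ basal AP versus VP, RFP difference between lobes). Without the filter on low counts the genes called were 45, 1, 224 and 99 (VP luminal RFP, AP basal RFP, AP versus DLP, RFP+ basal AP versus VP), and 2 members were called for RFP+ basal AP versus VP and 2 for the RFP difference between lobes. Cells under 7500 UMIs gave 867 genes and 1 member for AP basal versus luminal, 456 and 3 for AP luminal RFP, 0 and 0 for AP versus DLP and 1 gene for RFP+ basal AP versus VP. Without the 5% of cells with most UMIs 48, 961 and 200 genes were called (VP luminal RFP, RFP- luminal AP versus VP, RFP difference between lobes) and 1 member for RFP+ basal AP versus VP. With only the populations compared, 40 genes were called for AP versus DLP, and 0, 2, 0, 2 and 2 members for VP luminal RFP, RFP- luminal AP versus VP, AP versus DLP, RFP+ basal AP versus VP and the RFP difference between lobes. Resolution 0.5 gave 32 genes for VP luminal RFP and 0 members for AP versus DLP. At least 20 cells per sum gave 0 and 1 members for AP versus DLP and RFP+ basal AP versus VP, and library sizes without the 50 most abundant genes 1 for the RFP difference between lobes.

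In castrated pairs the counts past 2-fold went from 2 to 0 higher (AP basal) without the 5% of cells with most UMIs, and to 2 higher and 2 lower (VP RFP+ basal) and 1 lower (AP RFP+ luminal) with cells under 7500 UMIs. Without the 50 most abundant genes they went to 3 lower (DLP), 6 lower (AP RFP+ luminal) and 5 higher (VP RFP+ basal), besides the VP RFP+ luminal-like count given above.

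No call turned direction. Among differences that had not passed, the following turned sign, on the log2 scale. In VP luminal RFP, Smad7 went to -0.0355 (DESeq2), -0.0126 (20 cells), -0.0139 (50 genes) and -0.0417 (populations compared), Inhba to -1.32 (DESeq2, a fit to 1 UMI), and Id1 to 0.79 (20 cells) and 0.96 (5% of cells). In AP basal RFP, cells under 7500 UMIs gave 0.46 for Bmp2, -0.18 for Id2, -0.089 for Id3 and -0.0164 for Smad7, resolution 0.5 gave 0.0722 for Bmp4, and leaving out the 5% of cells gave 0.17 for Bmp2 and -0.0769 for Inhba. Smad7 went to -0.0226 (resolution 0.5) and -0.0277 (5% of cells) in AP basal versus luminal, to -0.63 in AP luminal RFP and to 0.12 in AP versus DLP (both under 7500 UMIs). DESeq2 fitted -0.46 to Inhba in RFP- luminal AP versus VP, from 1 UMI. In the RFP difference between lobes Smad6 went to -0.49 (DESeq2), Inhba to 0.0138 (resolution 0.5) and Bmp7 to -0.38 (5% of cells). Leaving out 1 run gave ranges across 0 for Smad6 in AP basal versus luminal (-0.83 to 0.0154), for Id1 (-2.43 to 0.75), Id2 (-0.49 to 0.0754) and Smad7 (-0.27 to 0.47) in VP luminal RFP, for Bmp2 (-0.37 to 0.0785), Bmp4 (-0.15 to 0.10), Id1 (-0.0059 to 0.33), Id3 (-0.0393 to 0.0878) and Smad7 (-0.0053 to 0.29) in AP basal RFP, for Bmp2 (-0.57 to 0.69) and Bmp4 (-0.68 to 2.63) in RFP- luminal AP versus VP, for Bmp2 (-0.21 to 3.50) and Id3 (-0.29 to 0.25) in AP versus DLP, for Tgfb2 (-0.59 to 1.14) in RFP+ basal AP versus VP, and for Smad7 (-1.24 to 0.11) and Inhba (-4.02 to 0.73) in the RFP difference between lobes. Except as said, the cause of these changes was not tested.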

Other observations

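For the 5 members with a mean of at least 10 CPM over the 31 intact sums, the genes of most similar pattern were sought among 11766 other genes, by Pearson r of log2(CPM + 1). Id1 was closest to Rnase4 (r = 0.91), Adgrg6 (0.907) and Sbspon (0.87). Id3 was closest to Rnase4 as well (0.915), then to Gtf2i (0.881) and App (0.878), and Id2 to Adgrg6 (0.869), Notch1 (0.861) and Cpd (0.838). Bmp7 was closest to Dlgap1 (0.894), Mrps6 (0.861) and Slc7a1 (0.849), and Smad7 to Efnb2 (0.876), Sema3c (0.855) and Ctnna1 (0.851). The sums share runs, lobes and depth, so these values are a description with no test.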
